A study of Mus musculus with 4 samples.

Results

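The secreted Wnt antagonists are the proteins that cells release to restrain Wnt signalling outside the cell. The set held 10 mouse genes, Wif1, Sfrp1, Sfrp2, Sfrp4, Sfrp5, Frzb, Dkk1, Dkk2, Dkk3 and Dkk4, which were found on the array by gene name and by transcript accession. They were measured by 12 of the 41174 probes and made up 10 of the 27597 named genes or transcripts. Dkk1 and Sfrp1 had 2 probes each and the other genes 1.

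Gene expression was measured on 1-colour Agilent mouse arrays in OP9 cells, a mouse stromal cell line used to support blood progenitors in culture. Control cells carried the LZRS-IRES-GFP retroviral vector with no insert, and Wnt3A cells carried that vector with the Wnt3A gene, with 2 arrays per group. All cells were grown in the same serum-containing medium, and both groups therefore carried the vector and its GFP. The labels do not say whether the replicates were separate cultures or whether the lines were clones, so the p-values cover the spread of these 4 samples only, which may be technical. The comparison asks how Wnt3A changes the genes of stromal cells that support blood progenitors.

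Wnt proteins signal by joining a Frizzled receptor to the co-receptors Lrp5 and Lrp6, which stabilises beta-catenin. Wif1 and the Sfrp proteins, including Frzb, bind the Wnt ligand itself, the Sfrp proteins through a domain like that of Frizzled. Dkk1, Dkk2 and Dkk4 instead bind the co-receptors, and Dkk3 is a divergent member of that family. Several of these genes are known to respond to Wnt signalling themselves, and in bone and marrow stroma Dkk1 and the Sfrp genes are studied as local brakes on bone formation.

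The probe of Wnt3a, the inserted gene, gave 0.0151 and 0.0134 in Control against 0.0112 and 0.123 in Wnt3A, and passed the detection floor only in Wnt3A replicate 2. These are intensities in the deposited table, in which the median of each array is 1. It begins 2599 bases into the transcript, and since the labels do not give the extent of the insert, it checks no label. The estimated floors, the lowest intensities taken as signal, lay between 0.0533 and 0.0729. Across the tested probes, which are not independent replicates, Pearson's r of the Control pair was 0.930, that of the Wnt3A pair 0.935 and that of mixed pairs 0.876 to 0.885. The scanner files that accompany the table did not follow it closely. The scanner file of Control replicate 2 ranked its spots most like every one of the 4 table columns (Spearman's rho 0.826 to 0.845, across spots, which are not independent replicates), and the scanner file of Control replicate 1 was faint, with 41.8% of spots well above background. Stromal markers had a median percentile of 90.3 to 95.7 within an array in the table and of 53.4 to 72.8 in the scanner files. Macrophage markers had one of 45.8 to 50.4 in the table and of 73.8 to 89.7 in the scanner files. In both sources a marker was read from its probe with the highest mean in the table, which can favour the table. These percentiles are thus a description and do not decide between the sources. The table was used throughout, a choice made with earlier results of these data known. The scanner values of the antagonists are given beside the results.

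The results turn on Wif1 and Sfrp2, which rose, and on Dkk1 and Sfrp1, whose paired probes read differently, so the start of their probes is shown as the array annotation gives it, the first 30 of 60 bases, 5′ to 3′.
Wif1 probe: ggctgatatctactcttccttttaggtttt
Sfrp2 probe: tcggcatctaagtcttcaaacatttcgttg
Dkk1 probe 1: tactgtgttgtaaatcctcagtgtggcact
Dkk1 probe 2: atgcagaaggaagcctgccaacttaagcca
Sfrp1 probe 1: cggaatcagtatagcgtggaaggagacagt
Sfrp1 probe 2: gtgcattagtaattagaaatagtctaacct
On mouse build mm8 the Wif1 probe lies on chromosome 10 from 120503083 to 120503142 and starts at position 1396 of its transcript. The Sfrp2 probe lies on chromosome 3 from 83859869 to 83859928, at transcript position 1640. Dkk1 probe 1 (chromosome 19, 30612931 to 30612990) starts at transcript position 1127 and probe 2 (30612036 to 30612095) at position 2022. Sfrp1 probe 1 (chromosome 8, 24913185 to 24913244) starts at position 2365 and probe 2 (24913873 to 24913932) at position 3053. The files do not give exons or untranslated regions at these positions.

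Wif1 and Sfrp2 were read near the bottom of the Control arrays and near the top of the Wnt3A arrays. In these bulk samples more cells of a type and more RNA per cell cannot be told apart. Of the 10 antagonist genes, 8 could be tested, and 2 of them rose and 0 fell at an adjusted p under 0.05 in limma. Over all 22859 genes tested the share that rose was 0.402% and the share that fell was 0.241%. Only 5 of the 8 tested genes were above the floor on all 4 arrays. Wif1, Sfrp2 and Frzb entered the test through the Wnt3A arrays alone, so if they differed at all they had to be higher in Wnt3A. The other 6 tested genes did not pass, and their intervals are given with each gene below. The median log2 change of the 8 genes was 0.64, or 0.52 with Wif1, Sfrp2 and Frzb at their lower bound, against -0.01 for all genes tested. Groups did not overlap for 4 of the 8 genes, all with Wnt3A higher, against 45.2% of all genes tested in either direction and 21.5% with Wnt3A higher.

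**Figure D1:**
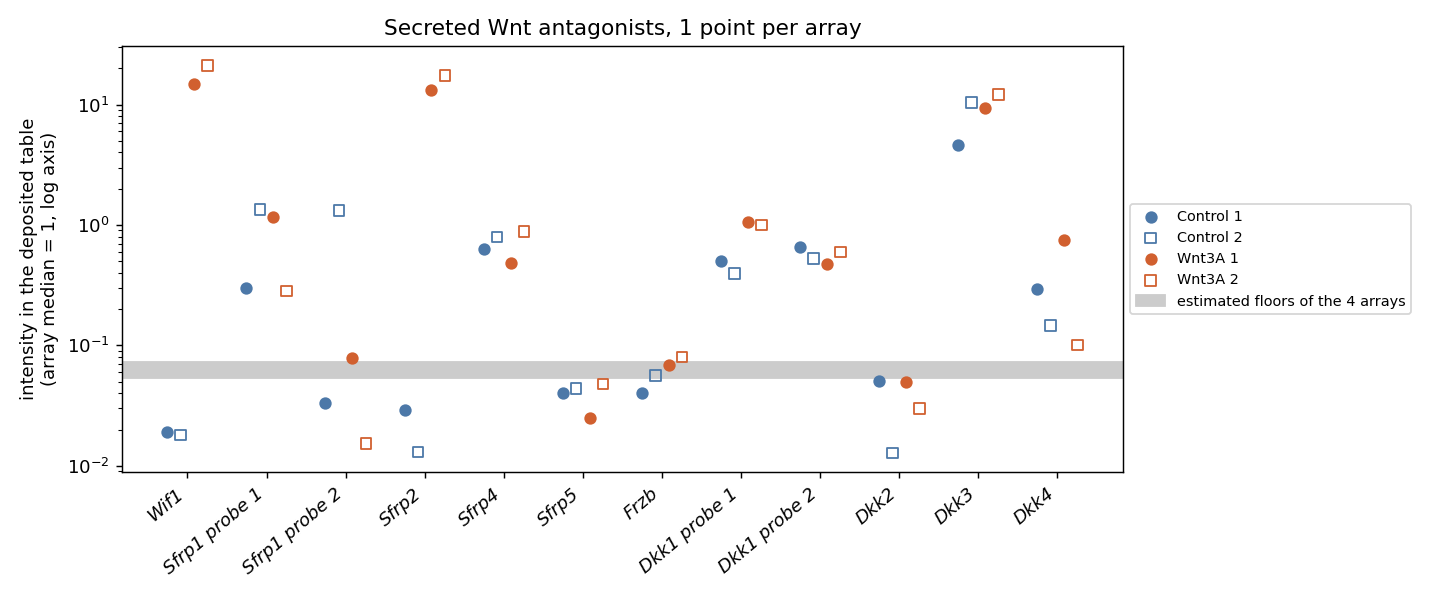
Intensity of each antagonist probe in the deposited table (log axis, array median 1), 1 point per array, with circles for replicate 1 and squares for replicate 2. The grey band spans the floors of the 4 arrays (0.0533 to 0.0729). Wif1 and Sfrp2 lie below the band in both Control arrays and above 13 in both Wnt3A arrays.

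Among the antagonists that bind Wnt, Wif1, the Wnt inhibitory factor with its own WIF domain, gave intensities of 0.0191 and 0.0180 in Control and rose to 14.8 and 21.2 in Wnt3A. Both Control values were under the floors of their arrays, at the 10.7th and 10.8th percentile of all probes, and both Wnt3A values were at the 89.4th and 92.2nd. The groups did not overlap. Against the floor, Wif1 was at least 268-fold higher in the Wnt3A arrays, or 134-fold with a floor 2 times as high (higher in 2 of 2 Wnt3A arrays). The limma adjusted p of 0.0226 belongs to the fitted log2 change of 9.91 and not to these bounds. That fit uses the Control values under the floor and their spread. On the log2 scale relative to the 75th percentile of the array, the Wnt3A mean was 1.87 ± 0.34 (SD, n = 2).

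Sfrp2, a secreted Frizzled-related protein made by many mesenchymal cells, rose as well. Its intensity was 0.0290 and 0.0130 in Control, both under the floor, against 13.2 and 17.4 in Wnt3A. Both Wnt3A values lay above both Control values. Sfrp2 was at least 230-fold higher (115-fold with a floor 2 times as high), with a Wnt3A mean of 1.65 ± 0.26 (log2, SD, n = 2). Its limma adjusted p of 0.0279 likewise belongs to the fitted log2 change of 9.62 and not to the bounds. The calls of both genes rest on all 4 arrays. With any 1 of Control replicate 1, Control replicate 2, Wnt3A replicate 1 or Wnt3A replicate 2 left out, limma called 0 of all genes (2284 to 2816 at an unadjusted p under 0.05), and the adjusted p of Wif1 and Sfrp2 was between 0.147 and 0.192. Their fitted log2 changes, which use the values under the floor and are no bounds, stayed between 9.67 and 10.15 for Wif1 and between 8.99 and 10.25 for Sfrp2 in these fits. With the replicate number as a block both missed the threshold, with an adjusted p of 0.0978.

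The scanner files showed no such separation of the groups for Wif1 or Sfrp2. There Wif1 read 2.64 and 14.1 in Control against 70.9 and 5.21 in Wnt3A, and was marked well above background in Control replicate 2 and Wnt3A replicate 1. Sfrp2 read 9.23 and 3.70 in Control against 149 and 4.14 in Wnt3A, and was marked so only in Wnt3A replicate 1. Wnt3A replicate 1 was thus the highest file for both genes and Wnt3A replicate 2 was low, and neither gene could be tested because no group had both of its files marked. Without the faint file of Control replicate 1, Wif1 could be tested, with a log2 change of 0.72 and a limma adjusted p of 0.99999.

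**Figure D2:**
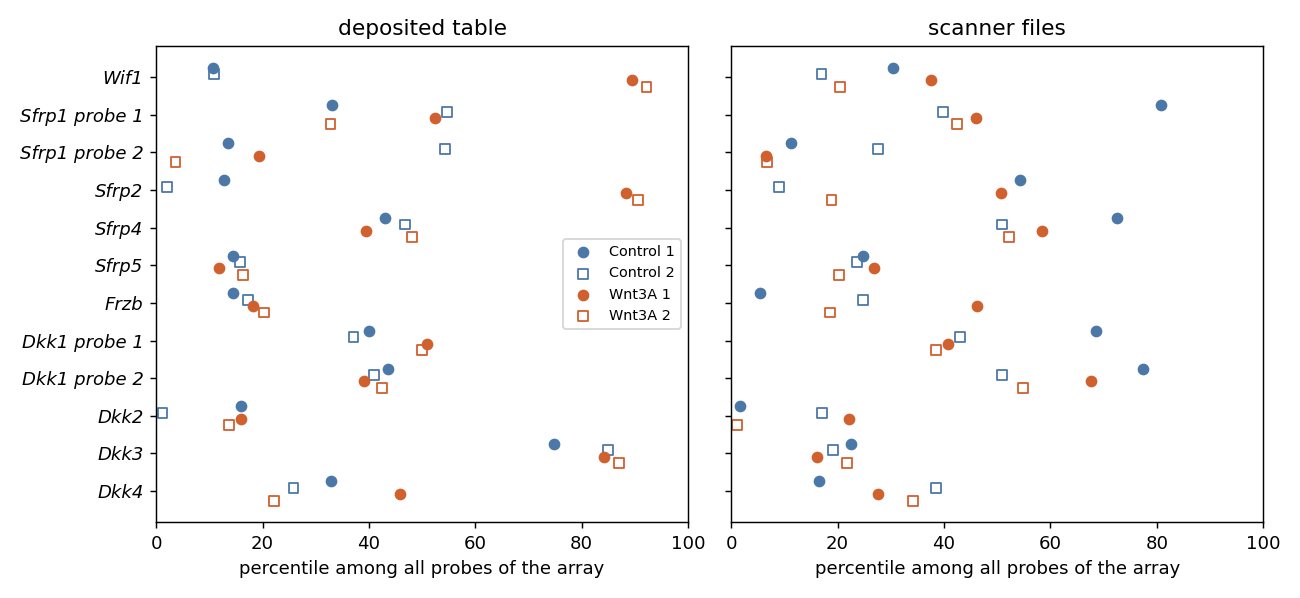
Percentile of each antagonist probe among all probes of an array, in the deposited table (left) and in the scanner files (right), 1 point per array, with circles for replicate 1 and squares for replicate 2. In the table the Wnt3A arrays of Wif1 and Sfrp2 lie between 88.3 and 92.2, and in the scanner files no antagonist shows such a gap between the groups.

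The remaining Frizzled-related genes did not pass. With probe 1, Sfrp1 gave 0.299 and 1.35 in Control against 1.16 and 0.283 in Wnt3A. The groups overlapped fully, since each held 1 high and 1 low array, 4.18-fold apart in Control and 4.19-fold apart in Wnt3A after scaling. Its log2 change was -0.13 ± 1.04 (SE, n = 2 per group; limma adjusted p = 0.978), with a 95% interval from -2.95 to 2.68. Probe 2 of Sfrp1 read 0.0336 and 1.32 in Control and 0.0780 and 0.0153 in Wnt3A, above the floor on 1 array of each group, and was not tested. Control replicate 2 was the highest array with both Sfrp1 probes, 36.4-fold above Control replicate 1 with probe 2. The direction of Sfrp1 turned without Control replicate 2 (0.90) and without Wnt3A replicate 2 (0.90).

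Sfrp4, another Frizzled-related protein, had intensities of 0.629 and 0.795 in Control and 0.486 and 0.879 in Wnt3A (chromosome 13, 19640084 to 19640143). The Wnt3A arrays lay on either side of both Control arrays. The log2 change was -0.10 ± 0.41 (SE, n = 2 per group; limma adjusted p = 0.951), and the 95% interval of the fold ran from 0.428 to 2.02. A change of the size of Wif1 or Sfrp2 lies outside that interval, while a change of up to 2.02-fold higher does not. Without Control replicate 2 or Wnt3A replicate 1 the sign turned, to 0.013 and 0.31.

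Frzb, also known as Sfrp3, read 0.0401 and 0.0562 in Control, under the floor, and 0.0690 and 0.0800 in Wnt3A, just above it (chromosome 2, 80213264 to 80213323). The groups did not overlap, but Frzb was at least 1.12-fold higher only, and its limma adjusted p was 0.498. The fitted log2 change of Frzb, which uses the Control values under the floor, was 0.66. Its confidence interval from -0.23 to 1.54 includes no change. Frzb dropped out of the test at a doubled floor. Sfrp5, which is studied as an adipokine, read 0.0400 and 0.0440 in Control and 0.0250 and 0.0478 in Wnt3A (chromosome 19, 42252032 to 42252091). It was above the floor on 0 arrays and was not tested, so a difference was not detectable here.

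None of the antagonists that bind the co-receptors passed. Dkk1, the founding member of the Dickkopf family, read 0.502 and 0.395 in Control and 1.05 and 0.996 in Wnt3A with probe 1. Both Wnt3A values lay above both Control values, and the fold was 2.32 (95% interval 1.24 to 4.34). Its log2 change of 1.21 ± 0.34 (SE, n = 2 per group) had an unadjusted p of 0.0199 and an adjusted p of 0.260 in limma, so it did not pass over all probes tested. Dkk1 probe 2 gave 0.652 and 0.528 in Control and 0.472 and 0.595 in Wnt3A, and its groups overlapped. The log2 change with probe 2 was -0.13 ± 0.34 (limma adjusted p = 0.914, 95% interval -1.06 to 0.79). The 2 probes of Dkk1, which annotate to 1 transcript, thus differed in sign, and the mean of both gave a change of 0.54. In the scanner files Dkk1 was marked well above background on all 4 arrays with both probes, and its fitted change there was -1.83 with probe 1 (adjusted p = 0.9999).

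Dkk2, which like Dkk1 binds Lrp6, read 0.0506 and 0.0128 in Control and 0.0496 and 0.0300 in Wnt3A (chromosome 3, 132116699 to 132116758). It was above the floor on 0 arrays and was not tested. Dkk4, which is known as a Wnt target in other tissues, read 0.295 and 0.146 in Control and 0.749 and 0.101 in Wnt3A (chromosome 8, 24092537 to 24092596). The Wnt3A arrays held both the highest and the lowest value, 7.59-fold apart after scaling. The log2 change of Dkk4 was 0.42 ± 1.11 (SE, n = 2 per group; limma adjusted p = 0.919), with a 95% interval from -2.58 to 3.41. It was -0.14 without Control replicate 2, -1.05 without Wnt3A replicate 1 and 1.88 without Wnt3A replicate 2.

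Dkk3, the divergent member, was above the floor on all 4 arrays. Its intensity was 4.59 and 10.4 in Control and 9.30 and 12.1 in Wnt3A (chromosome 7, 111908495 to 111908554). Control replicate 1 was low, and Control replicate 2 lay between the Wnt3A arrays. The log2 change was 0.63 ± 0.49 (SE, n = 2 per group; limma adjusted p = 0.662), and the fold interval of 0.623 to 3.85 includes no change. Without Control replicate 1 the change fell to 0.092 and without Control replicate 2 it was 1.17. The scanner files placed Dkk3 elsewhere, at the 16.1st to 22.5th percentile of an array, against the 74.8th to 87.0th in the table.

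**Figure D3:**
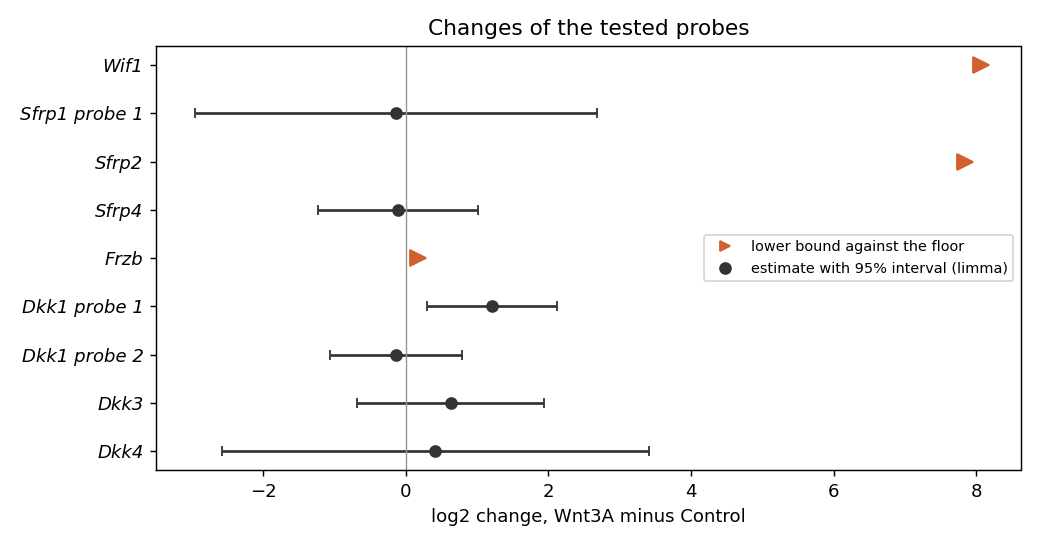
Log2 change (Wnt3A minus Control) of the 9 tested antagonist probes. Points give the limma estimate with its 95% interval, and triangles give the lower bound against the floor for the genes with no Control array above it. Wif1 (8.07) and Sfrp2 (7.84) stand apart, and every interval shown except that of Dkk1 probe 1 includes 0. Frzb is drawn at its lower bound, without its fitted interval of -0.23 to 1.54, which also includes 0.

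The genes most like Wif1 and Sfrp2 across the arrays were Postn, Itga11, Panx3, Itm2a and each other. Likeness was measured as the Euclidean distance between the 4 array values, each gene centred on its own mean, over 4 arrays and 22858 other genes tested. The distance uses values under the floor, which have no reliable order, so it reflects mainly the group difference and the scatter below the floor and is a description. In all, 50 genes rose with no Control array above the floor. The gene closest to Wif1 was Postn, which encodes the matrix protein periostin (distance 0.70, log2), and Sfrp2 was the second closest (0.81). Itga11, a collagen-binding integrin chain (1.099), Panx3, a pannexin channel protein of bone and cartilage cells (1.24), and the membrane protein gene Itm2a (1.52) came next. For Sfrp2 the order was Postn (0.44), Itga11 (0.58), Wif1 (0.81), Panx3 (0.85) and Itm2a (1.03). Postn read 0.0891 and 0.0554 in Control and 37.9 and 54.6 in Wnt3A. All of these genes were low in both Control arrays and high in both Wnt3A arrays, and none has more than 1 Control array above the floor.

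As Wif1 and Sfrp2 both rose and Dkk1 did not pass, the 250 bases before the antagonists' start sites were read from RefSeq (build GRCm38.p6), where a promoter was matched for 6 of the 10 antagonists, Wif1, Sfrp2, Sfrp5, Frzb, Dkk1 and Dkk2. The promoters of Wif1 (chr10:121033754-121034003, plus strand), Sfrp2 (chr3:83766071-83766320, plus strand) and Dkk1 (chr19:30549497-30549746, minus strand) are shown 5′ to 3′ along the gene, with matches to the TCF/LEF core motif in capitals.
Wif1 promoter: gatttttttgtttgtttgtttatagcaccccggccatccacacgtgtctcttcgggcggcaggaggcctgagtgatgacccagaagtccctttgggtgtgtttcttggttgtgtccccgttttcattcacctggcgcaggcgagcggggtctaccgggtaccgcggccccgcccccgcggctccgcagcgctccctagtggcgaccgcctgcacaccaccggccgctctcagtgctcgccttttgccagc
Sfrp2 promoter: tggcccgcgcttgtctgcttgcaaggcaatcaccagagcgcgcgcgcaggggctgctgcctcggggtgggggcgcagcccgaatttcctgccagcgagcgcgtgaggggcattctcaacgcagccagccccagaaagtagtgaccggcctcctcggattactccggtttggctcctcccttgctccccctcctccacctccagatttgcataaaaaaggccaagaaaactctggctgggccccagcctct
Dkk1 promoter: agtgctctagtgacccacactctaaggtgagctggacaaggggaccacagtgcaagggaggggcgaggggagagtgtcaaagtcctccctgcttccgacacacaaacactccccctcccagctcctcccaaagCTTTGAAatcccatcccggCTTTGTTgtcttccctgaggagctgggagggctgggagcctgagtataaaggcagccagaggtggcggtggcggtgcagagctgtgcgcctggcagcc
The motif was searched on both strands as CTTTGNN with A or T at each N. Dkk1 held 2 matches, CTTTGAA from base -117 to -111 and CTTTGTT from base -98 to -92, counted from the start site. Wif1, Sfrp2, Sfrp5, Frzb and Dkk2 held 0 in this window. Of all 32851 promoters of this length, 14.8% held at least 1. A match is a description of the letters and not a binding site. The windows held 21 CG dinucleotides for Wif1, 16 for Sfrp2, 16 for Frzb, 13 for Sfrp5, 7 for Dkk2 and 6 for Dkk1, against a median of 6 over all promoters. Wif1 thus held the most of the 6, and Sfrp2 held as many as Frzb.

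Other genes of the pathway were read from lists that hold none of the antagonists. Feedback targets, genes that Wnt signalling is known to switch on in many cells, had 1 of 12 tested genes that rose and 0 that fell, with a median log2 change of 1.498 (1.39 with Axin2 at its lower bound). Nkd2, an inhibitor of Dishevelled, was that gene. It read 0.134 and 0.130 in Control and 8.65 and 15.7 in Wnt3A, so the groups were far apart. Its log2 change was 6.47 ± 0.41 (SE, n = 2 per group; limma adjusted p = 0.0293), while a second probe of Nkd2 changed by 6.04 and missed the threshold (0.0912). Nkd2 did not pass with no filter on dim probes, nor without any 1 of the 4 arrays. Of the 12 targets, 10 were higher, against 49% of all genes tested. An unadjusted p under 0.05 was found for 7 with Wnt3A higher and for 0 with Wnt3A lower, against 6.31% and 6.34% of all genes. Axin2, the classic target of beta-catenin, read 0.0156 and 0.0138 in Control, under the floor, and 0.127 and 0.208 in Wnt3A. Against the floor it was at least 2.45-fold higher. Axin2 is counted among the 10 and the 7 above. It entered the test through the Wnt3A arrays alone, so if it differed at all it had to be higher in Wnt3A. Its fitted log2 change of 3.48, which uses the values under the floor, missed the threshold in limma (adjusted p = 0.0645). Axin2 passed with a doubled floor and with probes averaged.

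The receptors and co-receptors on which the antagonists act had 0 of 18 tested genes past the threshold in limma, and a median of 0.07. At an unadjusted p under 0.05, 2 were higher and 0 lower, against the shares of 6.31% and 6.34% over all genes. Lrp5, a co-receptor to which Dkk1 binds, read 101.6 and 82.4 in Control and 84.7 and 89.3 in Wnt3A. Kremen1, the Dkk receptor, read 21.0 and 23.7 in Control and 22.9 and 24.8 in Wnt3A. On the scaled values the groups overlapped for Lrp5 and did not for Kremen1, whose log2 change was 0.11 ± 0.30 (SE, n = 2 per group; limma adjusted p = 0.924). A second probe of Kremen1 gave a change of -1.28 (limma adjusted p = 0.328). Lrp6, which Dkk1 also binds, read 1.65 and 1.95 in Control and 1.11 and 1.32 in Wnt3A. Its groups did not overlap, and its log2 change was -0.55 ± 0.31 (SE, n = 2 per group; limma adjusted p = 0.539). Another probe of Lrp6 changed by -1.13. The gene with the smallest p was Lrp4, a co-receptor known to bind sclerostin, at 0.163 and 0.0442 in Control and 2.68 and 5.94 in Wnt3A. Its change of 5.57 ± 0.83 (SE, n = 2 per group) missed the threshold in limma (adjusted p = 0.104). Its other probe gave a change of 2.18.

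Among Wnt ligands, 0 of 16 tested genes passed in limma, and the median was 0.10. At an unadjusted p under 0.05, 3 of the 16 were higher, where 6.31% of all genes were. Wnt10b, a ligand known to favour bone over fat formation, came closest. It read 1.70 and 1.83 in Control and 16.1 and 23.4 in Wnt3A, a log2 change of 3.47 ± 0.34 (SE, n = 2 per group; limma adjusted p = 0.0511). It passed under 3 alternatives, a doubled floor, the trend and robust options of limma, and averaging over probes. The other extracellular inhibitors, which include Sost, Notum and Apcdd1, had 0 of 8 tested genes past the threshold in limma, with a median of 0.25. At an unadjusted p under 0.05, 2 of the 8 were higher, again against 6.31% of all genes. Notum, an enzyme that removes the lipid of Wnt proteins, had the smallest p. It read 3.66 and 2.68 in Control and 16.1 and 11.6 in Wnt3A, a change of 2.14 ± 0.39 (SE, n = 2 per group; limma adjusted p = 0.140).

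**Figure D4:**
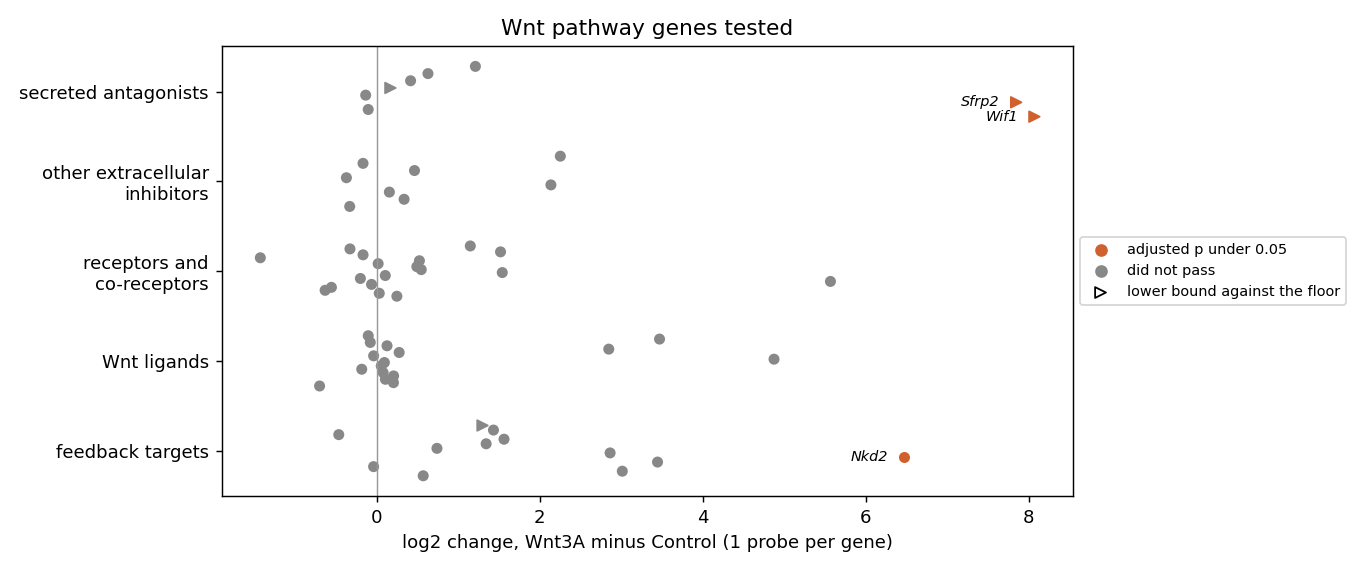
Log2 change (Wnt3A minus Control) of each tested gene, 1 probe per gene, for the secreted antagonists and 4 other lists of Wnt pathway genes. Orange marks genes at an adjusted p under 0.05 (Wif1, Sfrp2 and Nkd2), grey marks the others, and triangles are lower bounds against the floor. The medians of the receptors (0.07) and of the ligands (0.10) lie near 0.

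In the table, osteoblast and adipocyte markers moved with the groups as well, while the other marker lists were mixed or did not separate the groups. In the scanner files neither the osteoblast nor the adipocyte markers separated the groups. There the median percentile of osteoblast markers was 39.2 and 26.7 in Control against 27.2 and 24.5 in Wnt3A. That of adipocyte markers was 83.3 and 74.1 in Control against 84.2 and 61.8 in Wnt3A. The values below are from the table. Of 8 osteoblast markers, 4 were above the floor in each Control array and 6 in each Wnt3A array, and their summed intensity was 24.7 to 31.8 in Control and 143 to 149 in Wnt3A. Of the 6 tested, 4 rose (Alpl, Ibsp, Pth1r and Sp7), against 0.402% of all genes tested, and Dmp1 and Phex were under the floor on every array. Alpl and Ibsp entered the test through the Wnt3A arrays alone, so if they differed at all they had to be higher in Wnt3A. All 8 adipocyte markers were above the floor on every array, with a summed intensity of 901 to 1117 in Control and 88.4 to 123 in Wnt3A. These sums were carried by Fabp4 (723 and 895 in Control, 104 and 69.5 in Wnt3A), which missed the threshold in limma (adjusted p = 0.0670). All 8 were lower in Wnt3A, with a median log2 change of -3.01. Of the 8 adipocyte markers Lpl and Cd36 fell, where 0.241% of all genes tested did. Second probes missed the threshold in limma, with a change of -3.63 for Lpl (adjusted p = 0.0753) and of -0.58 for Cd36 (adjusted p = 0.615). Stromal markers were above the floor on every array (12 of 12), but 8 of the 12 were lower and 4 higher in Wnt3A, with a median log2 change of -0.57. Kitl fell, while its second probe changed by -5.23 and missed the threshold in limma (adjusted p = 0.111). The summed intensity of the stromal markers, 834 to 1211 in Control and 1740 to 1843 in Wnt3A, was carried by the collagen genes Col1a1 (671 and 736 in Wnt3A), Col1a2 (371 and 445) and Col3a1 (236 and 239). Macrophage markers had sums of 13.1 to 16.9 and 11.6 to 14.8. Of 5 endothelial markers, 3 were above the floor on each array. Their sums were 4.01 and 5.28 in Control and 7.09 and 6.22 in Wnt3A, which do not overlap. Of the 3 tested, 1 was higher and 2 were lower in Wnt3A. The part of these markers in the rise of Wif1 and Sfrp2 was not tested.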

How the data were processed

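The deposited table holds a linear intensity per spot for 4 arrays, with a median of 1 in each; how the authors scaled it is not given in the sources used here. The scanner files hold each spot's intensity as read by Agilent Feature Extraction 10.5.1.1, with probe positions on build mm8, per the file headers. Per the labels, a service laboratory amplified the RNA by global PCR. Table rows were joined to the annotation by feature number, and spots of 1 probe then differed by an SD of 0.082 to 0.101 (log2, median of 245 probes). A detection floor was set at 4.94 times the 1st percentile of each table column, the median factor of the scanner files.

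Values were taken to log2, the 75th percentile of the array was subtracted and the spots of a probe were averaged. The 33709 probes that exceeded the floor on both arrays of either group were tested two-sided with lmFit and eBayes of limma 3.58.1 (R 4.3.3), with Benjamini-Hochberg adjustment over all of them and a threshold of 0.05, and a gene was read from its tested probe with the highest mean. The fit was tested on simulated data, with 50 probes each changed by a log2 of 1, 2, 4 or 6. It called 0%, 2%, 76% and 98% of them, with 11 false calls among the other probes. A gene that did not pass may thus still have changed by a log2 of 1 or 2. An exact permutation test of 4 arrays would reach a two-sided p of 0.333 at the least, so none was used, and precision is limited by the number of arrays. All 10 antagonists are named, and from each other Wnt list the genes that passed and the gene with the smallest p, and the 5 genes nearest to Wif1 and to Sfrp2. Other genes named were chosen after their values were seen. The members, lists and the choice of the table over the scanner values were made with earlier results of these data known. Alternatives covered the source, background correction, scaling, filter, floor, variance model, probes of a gene, replicate block and each array left out. Replicate numbers were shared by the groups, but the deviations of same-numbered arrays did not correlate (r = 0.012), so the arrays were not treated as pairs.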

Additional observations from a re-analysis of the deposited data

How the results depend on the processing

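In the table, 2 antagonist genes (2 probes) passed under all 3 other scalings, with no filter, with a floor 2 times as high, with trend and robust settings and, for genes, with probes averaged. The number of genes and of probes was 0 where all 4 arrays had to exceed the floor, which leaves out Wif1 and Sfrp2, and 0 with each of the 3 scanner settings. It was 0 to 0 when any 1 array was left out. With the replicate block it was 0 as well, and the adjusted p of Wif1 and Sfrp2 was 0.0978. These fits have 1 residual degree of freedom, and limma called 0 genes of all with 2284 to 2816 at an unadjusted p under 0.05 without 1 array and 2737 with the block. Of the other Wnt pathway genes, 1 passed in the main setting, 0 with no filter, 4 with a floor 2 times as high (Axin2, Nkd1, Nkd2 and Wnt10b), 2 with trend and robust settings (Nkd2 and Wnt10b), 5 with probes averaged (Axin2, Nkd2, Rnf43, Tcf7 and Wnt10b), 0 with the replicate block, 0 with each scanner setting and 0 to 0 without 1 array.

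Signs turned only for genes that did not pass. Without Control replicate 2, Sfrp1 changed by 0.90, Sfrp4 by 0.013 and Dkk4 by -0.14. Without Wnt3A replicate 1, Sfrp4 changed by 0.31 and Dkk4 by -1.045, and without Wnt3A replicate 2 Sfrp1 changed by 0.90. Over the 4 fits that left out 1 array, Sfrp1 ranged from -1.17 to 0.90, Sfrp4 from -0.51 to 0.31 and Dkk4 from -1.045 to 1.88. With the scanner values, Dkk1 changed by -1.83 and Dkk4 by -0.94, and with normexp by -0.58 and -0.14. Without the file of Control replicate 1, a setting chosen after seeing the data, the scanner values gave 0.050 for Sfrp4, -0.25 for Frzb, -0.81 for Dkk1, -0.73 for Dkk3 and -1.30 for Dkk4. The cause was not tested.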
